A study of Mus musculus with 2 samples.

Results

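The genes described here are 7 of the 28692 genes counted in single cells of the mouse lateral hypothalamic area, chosen by name: the muscarinic acetylcholine receptor genes Chrm1, Chrm2 and Chrm3 and the nicotinic receptor subunit genes Chrna3, Chrna4, Chrna7 and Chrnb2. Acetylcholine is read by receptors of both kinds. Muscarinic receptors are G-protein-coupled: the M1 and M3 receptors (Chrm1, Chrm3) work through Gq and phospholipase C and usually excite a neuron, whereas the M2 receptor (Chrm2) works through Gi, opens inward-rectifier potassium channels and often limits transmitter release. Nicotinic receptors are cation channels built from subunits around a central pore: Chrna4 and Chrnb2 together form the common high-affinity nicotine-binding receptor of the brain, Chrna3 is best known with Chrnb4 from autonomic ganglia and the habenula, and Chrna7 can form a channel from copies of itself. Nicotine and acetylcholine are known to act on lateral hypothalamic circuits for feeding and arousal.

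Tissue came from C57BL/6 mice at postnatal day 30 without treatment or transgene given in the labels, dissected from brain slices and dissociated. Single cells were sequenced from the 3' end of polyadenylated RNA with Chromium v2 droplets (10x Genomics), and each captured molecule carries a tag, the UMI, by which it counts once. The study made 2 libraries: 1 labelled male, pooled from 3 animals, and 1 labelled female, pooled from 2 animals, all of them littermates. Each library is a pool, so the spread between libraries is not a spread between animals. The library labelled male held 23151801 UMIs in 3439 barcodes and the library labelled female 27437142 UMIs in 3793 barcodes. The labels and sex-linked genes disagreed: Xist, expressed from the inactive X chromosome of female cells, was found in 92.8% of barcodes of the library labelled male and 0.105% of the library labelled female, and Y-linked genes in 0% and 77.2%. Libraries are therefore named by label only, and no direction between sexes is drawn. The libraries shared 18 barcode sequences.

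After filtering, 3181 and 3515 cells remained (library labelled male first, here and throughout), of which 2034 and 2261 were neuron-like by their markers. Neurons were sorted by the vesicular GABA transporter Slc32a1 and the vesicular glutamate transporter Slc17a6. Neurons with a UMI of the first and none of the second were called inhibitory (982 and 1103 cells), and the reverse excitatory. Hcrt-high neurons (83 and 83) and Pmch-high neurons (85 and 61), in which hypocretin or melanin-concentrating hormone transcripts made up 0.3% or more of the UMIs, were set apart first. The remaining excitatory neurons, called other excitatory, numbered 597 and 684. A further 95 and 132 neurons held both transporters and 192 and 198 neither. The sorting genes are not results. All 10 neuron markers were found in every neuron group, but each also had a UMI in every glial and vascular class. They also served to name the clusters, so their presence is no separate check. Glial and vascular classes carry the ending "-like", since marker genes alone define them, and none of the receptor genes took part in clustering. Levels are given in CPM, the UMIs of a gene per 1000000 UMIs of a group's summed cells. Since 3' counting efficiency differs between genes, CPM are compared between cell groups, not between genes.

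Of 21 muscarinic and nicotinic receptor genes looked for, 6 of the 7 chosen here carried nearly all the counts in neurons. Chrnb2 had 1435 and 1605 UMIs in neuron-like cells, Chrna4 876 and 986, Chrm3 416 and 530, Chrm2 371 and 446, Chrna3 152 and 119 and Chrm1 148 and 134. Chrna7 had 2 and 4 UMIs in neuron-like cells and 7 in all kept cells, at most 1 in any cell, and its level could not be followed across groups at this depth. Of the 14 receptor genes outside the set, 3 had no UMI in any kept cell and 11 had at most 33. Chrm4, which encodes the M4 receptor, Chrna10 and Chrnd were at 0 UMIs in all neurons, which allows up to 0.0802 CPM over both libraries, and so was Chrng, with 2 UMIs in other cells. Chrnb4, the usual partner of Chrna3, had 15 and 17 UMIs in neurons, and Chrna5, an accessory subunit, 0 and 11. Chrm5 had 7 and 8, and Chrna6, known from dopamine neurons, 15 and 15.

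**Figure D1:**
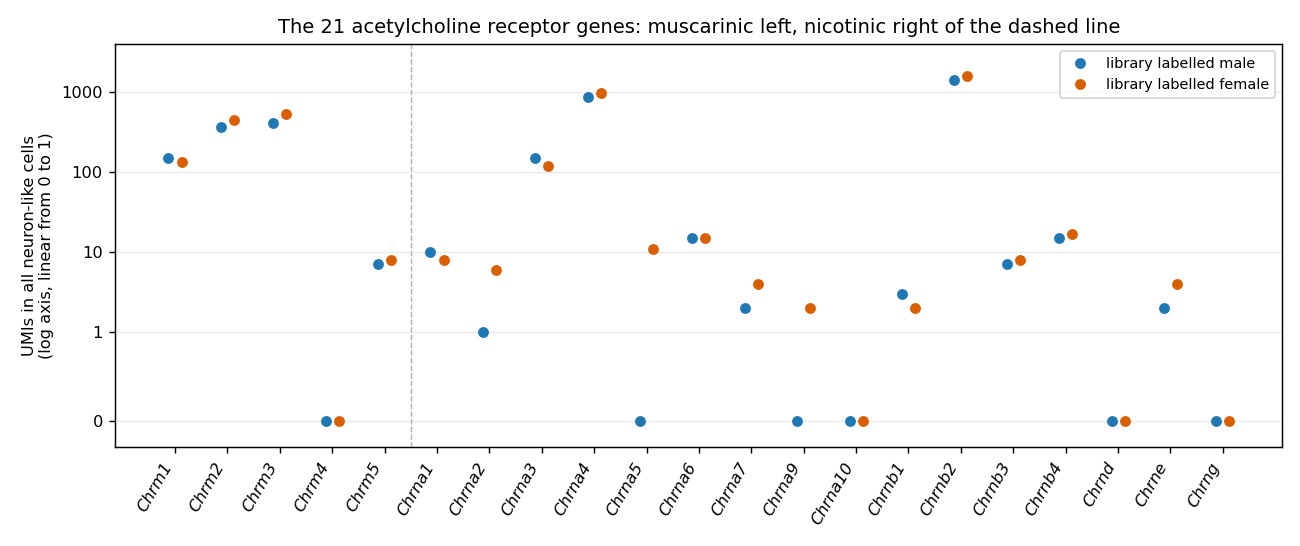
UMIs of the 21 acetylcholine receptor genes (horizontal axis) summed over all neuron-like cells of each library (vertical axis, logarithmic above 1); each point is 1 library. Chrm1, Chrm2, Chrm3, Chrna3, Chrna4 and Chrnb2 lie above 100 UMIs in both libraries, and every other gene has at most 17 in either.

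Chrna3 and Chrnb4 lie next to each other on the - strand of chromosome 9, with 1591 bases between them, and Chrna5 lies on the + strand 2331 bases beyond the end of Chrna3 (GENCODE M21, GRCm38). The promoters of Chrna3 and Chrnb4 are printed because Chrna3 stood apart in Pmch-high neurons and Chrnb4 is its neighbour and usual partner. Those of Chrm2, Chrm3 and Chrna4 are printed because these genes were low together in Hcrt-high neurons. Each is the RefSeq window from 250 bases before to 50 after a gene's start (GRCm38.p6), written 5' to 3' on the gene's strand: chr9:55026513-55026812 (-) for Chrna3, chr9:55048495-55048794 (-) for Chrnb4, chr6:36387834-36388133 (+) for Chrm2, chr13:10360754-10361053 (-) for Chrm3 and chr2:181039128-181039427 (-) for Chrna4. The Chrna4 window lies within the gene's GENCODE span (chr2:181018380-181043546), not at the 5' end of that span. Capitals mark motif matches. Searches ran on both strands, for GGGCGG as the GC box, for TATAAA as the TATA box and for the letters in its name as the CCAAT box. The motifs do not overlap in these windows.
Chrna3: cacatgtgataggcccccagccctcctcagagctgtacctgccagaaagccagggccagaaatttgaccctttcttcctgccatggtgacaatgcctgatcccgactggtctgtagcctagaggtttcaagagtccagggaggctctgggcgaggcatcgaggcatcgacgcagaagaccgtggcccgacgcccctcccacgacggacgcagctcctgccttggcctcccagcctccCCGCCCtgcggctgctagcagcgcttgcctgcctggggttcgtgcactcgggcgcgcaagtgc
Chrnb4: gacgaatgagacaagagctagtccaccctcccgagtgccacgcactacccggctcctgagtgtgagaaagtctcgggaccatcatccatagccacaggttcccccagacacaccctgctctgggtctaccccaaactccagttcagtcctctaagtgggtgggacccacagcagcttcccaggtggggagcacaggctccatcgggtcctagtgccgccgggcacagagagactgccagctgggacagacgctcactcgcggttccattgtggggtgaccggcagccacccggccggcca
Chrm2: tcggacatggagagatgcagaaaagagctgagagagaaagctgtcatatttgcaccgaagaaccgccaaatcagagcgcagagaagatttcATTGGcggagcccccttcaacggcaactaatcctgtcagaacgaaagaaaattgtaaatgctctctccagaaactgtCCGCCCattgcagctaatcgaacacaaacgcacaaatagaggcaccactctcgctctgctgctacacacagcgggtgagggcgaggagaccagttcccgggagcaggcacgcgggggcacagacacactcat
Chrm3: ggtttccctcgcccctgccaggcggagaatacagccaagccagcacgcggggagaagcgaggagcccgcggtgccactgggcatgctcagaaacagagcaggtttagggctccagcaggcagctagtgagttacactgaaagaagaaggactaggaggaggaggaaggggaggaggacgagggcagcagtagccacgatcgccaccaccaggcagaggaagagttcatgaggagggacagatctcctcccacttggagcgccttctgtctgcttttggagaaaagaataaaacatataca
Chrna4: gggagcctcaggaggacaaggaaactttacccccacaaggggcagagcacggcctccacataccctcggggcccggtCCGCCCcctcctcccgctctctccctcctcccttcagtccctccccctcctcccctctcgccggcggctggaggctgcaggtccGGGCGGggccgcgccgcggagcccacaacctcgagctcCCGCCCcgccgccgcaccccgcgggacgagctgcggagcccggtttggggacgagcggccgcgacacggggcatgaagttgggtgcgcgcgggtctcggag
The Chrna3 window held 1 GC box, the Chrna4 window 3, and the Chrm2 window 1 with 1 CCAAT box. The Chrnb4 and Chrm3 windows held none of the motifs, and no printed window held a TATA box. Over all 32851 windows of this length, 35.7% held a GC box, 13.6% a TATA box and 37.4% a CCAAT box. The windows of Chrm2, Chrm3 and Chrna4 thus share none of these motifs among all 3. GC content was 64.3% for Chrna3, 63.0% for Chrnb4, 52.7% for Chrm2, 57.3% for Chrm3 and 74.3% for Chrna4.

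Inhibitory and other excitatory neurons carried the receptors at similar levels, and 0 of the 6 genes tested was called different (edgeR quasi-likelihood test on sums per library with the library as a block, adjusted p under 0.05). By edgeR's p before adjustment across all genes, Chrna4 alone was under 0.05, and DESeq2 called 0. In this comparison 11.0% of all 12983 genes tested were called, 5.18% higher and 5.79% lower in inhibitory neurons. Chrna4 came nearest, at 58.6 and 54.9 CPM in inhibitory against 48.4 and 48.2 CPM in other excitatory neurons, a log2 fold change of 0.23 ± 0.08 (SE; edgeR adjusted p = 0.0741). Both inhibitory values lay above both excitatory ones. Chrna4 was not called in 6 of 9 other settings, but was called without doublet removal and where 2 or more transporter UMIs were required. Chrnb2 was at 84.6 and 76.9 against 87.3 and 86.7 CPM (-0.11 ± 0.06, edgeR adjusted p = 0.314), with an interval of -0.23 to 0.01 on the log2 scale.

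The muscarinic genes crossed over between the libraries in this comparison. Chrm3 was at 28.9 and 26.8 CPM in inhibitory and 28 and 33.9 CPM in other excitatory neurons (-0.16 ± 0.11, edgeR adjusted p = 0.436). Chrm2 was at 25.4 and 21.7 against 24.1 and 29.2 CPM (-0.20 ± 0.13, edgeR adjusted p = 0.4). Chrm1 was at 9.26 and 9.05 against 10.9 and 5.01 CPM (0.25 ± 0.24, edgeR adjusted p = 0.607). For all 3, the 2 groups' values overlapped. Chrna3 was low in both groups, at 4.44 and 2.77 against 4.94 and 2.94 CPM (-0.13 ± 0.29, edgeR adjusted p = 0.862). Chrna7 had 0 and 3 UMIs in other excitatory neurons and none in inhibitory, Hcrt-high or Pmch-high neurons, and was too low to test in any comparison. Where Hcrt-high and Pmch-high neurons were put back into their transporter groups, 3 of the 6 were called: Chrna3 lower in inhibitory neurons (-1.48) and Chrna4 (0.35) and Chrm1 (0.56) higher.

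Hcrt-high neurons, which make the arousal peptides hypocretin-1 and -2 (orexins), were low in muscarinic receptor transcripts and in Chrna4, while Chrnb2 was close to its level elsewhere. Against other excitatory neurons, 4 of the 6 receptor genes tested were called lower and none higher, beside 19.8% of all 11825 genes tested called lower and 41.1% called in either direction. Chrm3 had 3 and 1 UMIs in Hcrt-high neurons, or 2.63 and 0.738 CPM, against 28 and 33.9 CPM. That is a log2 fold change of -4.00 ± 0.43 (edgeR adjusted p = 7.94e-19), or 16.0-fold lower. Chrm2 had 2 and 5 UMIs, or 1.75 and 3.69 CPM, against 24.1 and 29.2 CPM (-3.00 ± 0.39, edgeR adjusted p = 4.46e-13). For both genes each Hcrt-high library lay below each other excitatory library.

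Chrm1 had 0 and 2 UMIs in Hcrt-high neurons, and the 0 allows up to 2.63 CPM, against 53 and 29 UMIs in other excitatory neurons. Pooled over libraries it was 9.61 times higher in the other excitatory neurons (exact 95% interval 2.58 to 80.7, counting error only). edgeR called it (adjusted p = 5.79e-04) and DESeq2 did not (adjusted p = 0.186). A low Chrm1 level was not particular to Hcrt-high neurons: the median over 14 neuron-like clusters was 3.77 CPM, and 2 clusters had no Chrm1 UMI. Chrna4 had 12 and 14 UMIs, or 10.5 and 10.3 CPM, against 48.4 and 48.2 CPM (-1.96 ± 0.25, edgeR adjusted p = 3.1e-14). The libraries differed by far less than the groups, and the Chrna4 fold change was -1.89 and -1.92 in each library alone. Its usual partner Chrnb2 stood at 74.6 and 77.5 CPM against 87.3 and 86.7 CPM, with a fitted log2 fold change of 0.06 ± 0.13 (edgeR adjusted p = 0.768; interval -0.20 to 0.32). Chrna3 was at 6.14 and 5.16 against 4.94 and 2.94 CPM and was not called (0.79 ± 0.53, edgeR adjusted p = 0.235).

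Fitted fold changes of the Hcrt-high and Pmch-high comparisons lie 0.25 to 0.27 above those of plain CPM on the log2 scale, since the normalization centres on most genes. Chrnb2 is therefore slightly lower by CPM and slightly higher in the fit, and neither difference was called. Hcrt-high neurons were also deeper, with medians of 16101 and 18593 UMIs per cell against 7834 and 8027, and their summed mature oligodendrocyte markers were at 911 and 1121 CPM against 1320 and 1680 CPM in other excitatory neurons (1695 and 1100 CPM in Pmch-high neurons). Astrocyte markers summed to 261 and 331 CPM in Hcrt-high, 319 and 340 CPM in Pmch-high and 475 and 505 CPM in other excitatory neurons. The part of depth or of RNA from other cells in the differences was not tested beyond the thinning given next. With each cell thinned to 3000 UMIs, Chrm3 and Chrna4 were still called, Chrm2 was not (-2.18, edgeR adjusted p = 0.0727) and Chrm1 could not be tested. Chrm3 was then found in 0 of 73 and 0 of 73 Hcrt-high cells and Chrna4 in 1 and 2, so both calls rest on very few UMIs there. The Hcrt-high and Pmch-high comparisons share the other excitatory neurons as a reference.

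Pmch-high neurons, which make the feeding- and sleep-related peptide MCH, stood apart through Chrna3. They held 74 and 52 UMIs of it in 35 of 85 and 21 of 61 cells, out of 152 and 119 UMIs in all neurons. The level was 51.6 and 49.0 CPM (50.3 ± 1.86, SD, n = 2 libraries) against 4.94 and 2.94 CPM in other excitatory neurons (3.94 ± 1.42, SD, n = 2 libraries). The log2 fold change was 3.94 ± 0.26 (SE; edgeR adjusted p = 4.48e-09), or 15.4-fold, and was 3.64 and 4.30 in each library alone. Both Pmch-high libraries lay far above every other neuron group. A Chrna3 UMI was found in 41.2% and 34.4% of Pmch-high neurons, against 3.02% and 2.05% of other excitatory neurons and 0.328% and 0% of mature oligodendrocyte-like cells, taken as a class that should lack the gene (median depths 14237 and 12947, 7834 and 8027, and 4170 and 4643 UMIs). Thinned to 3000 UMIs, the shares were 9.21% and 14.8% against 1.58% and 1.79%.

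All 126 of these Chrna3 UMIs fell in neurons with 1% or more of their UMIs from Pmch (79 and 53 cells). The 6 and 8 neurons between 0.3% and 1%, just inside the limit, had none, and neither had the 41 and 21 neurons just outside it, between 0.1% and 0.3%, which were shallower (medians 3031 and 4284 UMIs against 15755 and 16766 from 1% on). Within Pmch-high neurons, those with Cartpt, a peptide gene that marks a known subset of MCH neurons, had 53.4 and 45.0 CPM of Chrna3 and those without 45.2 and 64.5 CPM. Their Poisson intervals overlapped, and the order differed between libraries. Pmch-high neurons with Chrna3 also held Chrnb2 in 27 of 35 and 17 of 21 cells. Chrnb4 was found in 3 and 1 of these cells and in 0 of 50 and 0 of 40 Pmch-high cells without Chrna3, and Chrna5 in none of these cells and in 0 and 1 of those without Chrna3. These Chrna3 cells were deeper, at medians of 26127 and 28594 UMIs against 8360 and 8310 in Pmch-high cells without it, so a share of cells with another receptor gene follows depth as well.

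Against other excitatory neurons, 1 of the 6 genes tested was called higher in Pmch-high neurons, beside 19.1% of all 11789 genes tested, and 3 were called lower, beside 15.8% (34.8% in either direction). Chrm3 had 3 and 5 UMIs, or 2.09 and 4.71 CPM, against 28 and 33.9 CPM (-2.96 ± 0.36, edgeR adjusted p = 6.1e-06). Chrm2 was at 11.2 and 15.1 against 24.1 and 29.2 CPM (-0.76 ± 0.25, edgeR adjusted p = 0.0253). Both lay below the other excitatory neurons in each library. The Chrm2 call was lost with DESeq2 (adjusted p = 0.519) and in cells thinned to 3000 UMIs (edgeR adjusted p = 0.653). Chrm1 had 5 and 0 UMIs, the 0 allowing up to 2.83 CPM, beside a median of 3.77 CPM over 14 neuron-like clusters. Its level was 3.84 times higher in other excitatory neurons (exact 95% interval 1.58 to 12.2), and its edgeR call (adjusted p = 0.0312) was lost with DESeq2 (0.349) and without the library block (edgeR adjusted p = 0.132). Chrna4 was at 46.0 and 52.7 against 48.4 and 48.2 CPM (0.29 ± 0.15, edgeR adjusted p = 0.151) and Chrnb2 at 80.2 and 80.1 against 87.3 and 86.7 CPM (0.15 ± 0.12, edgeR adjusted p = 0.338), neither of them called.

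The 2 peptide groups also differed from each other. Of the 4 receptor genes tested, 3 were called lower in Hcrt-high than in Pmch-high neurons, beside 17.8% of the 9683 genes tested called lower and 34.0% called in all. Chrna3 differed by -3.15 ± 0.32 (6.14 and 5.16 against 51.6 and 49.0 CPM, edgeR adjusted p = 4.36e-21) and Chrna4 by -2.25 ± 0.28 (10.5 and 10.3 against 46.0 and 52.7 CPM, edgeR adjusted p = 1.74e-14). Chrm2 differed by -2.23 ± 0.58 (1.75 and 3.69 against 11.2 and 15.1 CPM, edgeR adjusted p = 7.09e-04), a call that DESeq2 did not make (adjusted p = 0.367). In all 3 the libraries of the groups did not overlap. Chrnb2 was alike in level, at 74.6 and 77.5 against 80.2 and 80.1 CPM (-0.09 ± 0.16, edgeR adjusted p = 0.707; interval -0.40 to 0.22). Chrm1 and Chrm3, with 2 and 4 UMIs in Hcrt-high and 5 and 8 in Pmch-high neurons over both libraries, were too low to test.

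**Figure D2:**
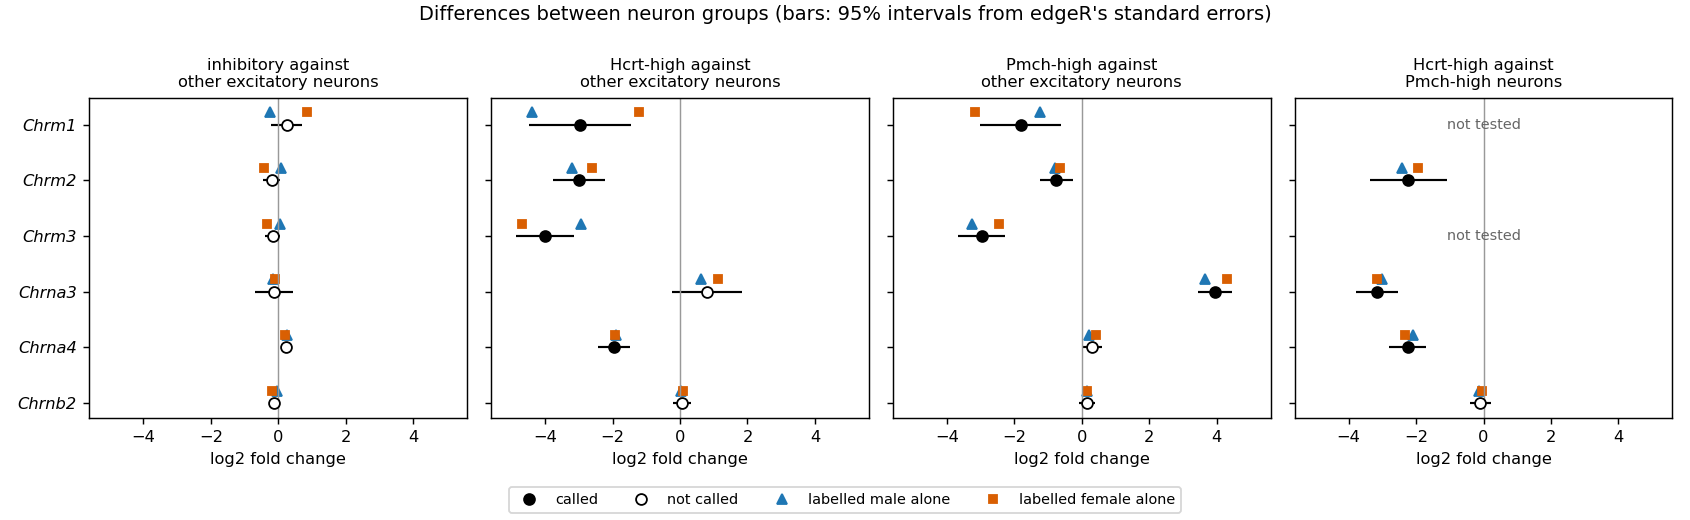
Log2 fold changes of 6 receptor genes (rows) in 4 comparisons of neuron groups (panels); circles are edgeR's fit with bars of 95% intervals from its standard errors, filled where called at adjusted p under 0.05, and triangles and squares are the libraries labelled male and female alone. Chrna3 stands at 3.94 in Pmch-high neurons, the muscarinic genes and Chrna4 stand at -1.96 or lower in Hcrt-high neurons, and Chrnb2 stays near 0 in each panel.

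Across all cell groups, each gene had its own order of levels. Chrm3 was highest in neurons with both transporters (27.5 and 34.4 CPM), other excitatory and inhibitory neurons, whose intervals overlapped, then in neurons with neither transporter (21.2 and 23.8 CPM), and lowest among neurons in the Pmch-high and Hcrt-high groups. Chrm2 followed a similar order: other excitatory, both-transporter (24.1 and 27.7 CPM) and inhibitory neurons first, Pmch-high and neither-transporter neurons (14.5 and 11.9 CPM) next with overlapping intervals, and Hcrt-high neurons last. Chrna4 was highest among neurons in those with both transporters (72.3 and 66.6 CPM), then in inhibitory, Pmch-high and other excitatory neurons, in neurons with neither transporter (36.6 and 25.4 CPM) and in Hcrt-high neurons. Chrnb2 ran from 55.9 and 67.5 CPM in neurons with neither transporter, the shallowest group (medians 4768.5 and 5504.5 UMIs), to 98.7 and 78.6 CPM in those with both. Chrm1 was at most 13.8 CPM in any of these neuron groups.

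**Figure D3:**
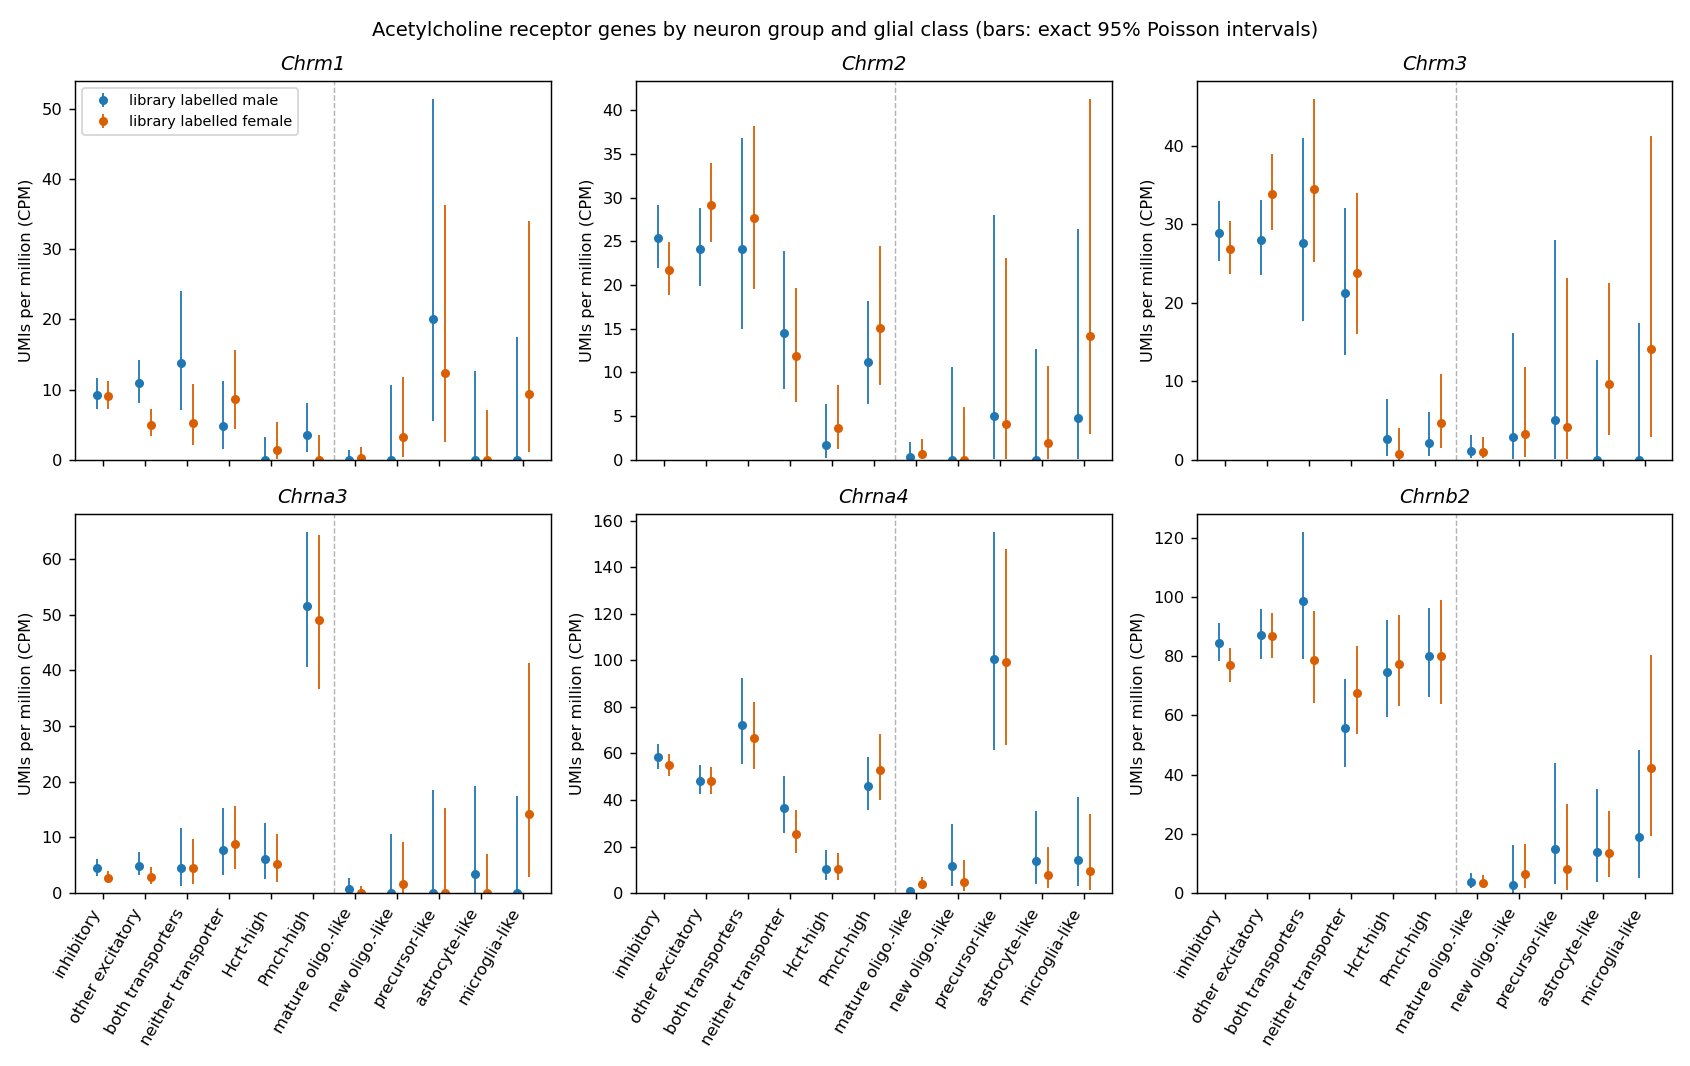
CPM of 6 receptor genes (panels, vertical axis) in 6 neuron groups and 5 glial classes (horizontal axis; neurons left of the dashed line), with exact 95% Poisson intervals that cover counting error only; each point is 1 library. Among the groups plotted, Chrna3 is highest in Pmch-high neurons at 51.6 and 49.0 CPM, and Chrna4 is at 100.4 and 99.4 CPM in oligodendrocyte precursor-like cells.

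Outside neurons few UMIs of the receptor genes were counted, but Chrna4 was at a higher level in oligodendrocyte precursor-like cells than in all neurons together. Of all UMIs in kept cells, 94.0% (Chrm1) to 98.2% (Chrm2) fell in neurons for the 6 genes with more than 100 UMIs, and Chrna4 stood at 95.4%. Mature oligodendrocyte-like cells, the deepest glial sums, had 0.736 and 4.06 CPM of Chrna4, 3.68 and 3.39 CPM of Chrnb2 and 1.10 and 1.02 CPM of Chrm3. Oligodendrocyte precursor-like cells (81 and 95 cells), which carry Pdgfra and Cspg4, held 20 and 24 UMIs of Chrna4, or 100.4 and 99.4 CPM (Poisson intervals 61.3 to 155 and 63.7 to 148). Newly formed oligodendrocyte-like cells, the next stage of the lineage, had 4 and 3 UMIs (11.6 and 4.90 CPM). A Chrna4 UMI was found in 16 of 81 and 23 of 95 precursor-like cells (19.8% and 24.2%), against 0.328% and 1.68% of the deeper mature oligodendrocyte-like cells (medians 2298 and 2444 against 4170 and 4643 UMIs).

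Few UMIs of Chrnb2, the usual partner of Chrna4, were counted in these precursor-like cells: 3 and 2, or 15.1 and 8.29 CPM. With no doublets removed Chrnb2 had 8 and 3 UMIs (37.9 and 11.7 CPM), and with a stricter cell filter 3 and 1 (23.8 and 8.85 CPM). At this depth, whether Chrna4 and Chrnb2 share cells could not be read. Set beside all neurons, the precursor-like cells had more Chrna4 (50.9 and 48.8 CPM in neurons, Poisson intervals apart) and less Chrnb2 (83.3 and 79.5 CPM in neurons). For some single neuron groups the Chrna4 intervals overlapped those of the precursor-like cells. Neurons with both transporters had 72.3 and 66.6 CPM of Chrna4 (intervals 55.6 to 92.5 and 53.5 to 82.0). The neuron-like cluster highest in Chrna4 averaged 91.7 CPM over the libraries. The 10 neuron markers summed to 3814 and 4682 CPM in precursor-like cells against 23744 and 25817 CPM in neurons. Chrm1 had 4 and 3 UMIs in precursor-like cells, or 20.1 and 12.4 CPM against 8.59 and 6.63 CPM in all neurons, with Poisson intervals that overlapped (5.47 to 51.4 and 2.56 to 36.3 against 7.27 to 10.1 and 5.56 to 7.86). With no doublets removed Chrna4 was at 114 and 106 CPM, and with a stricter cell filter, on 51 and 44 cells, at 87.3 and 115 CPM. No test was made between glial classes, which rest on clusters. In microglia-like cells Chrnb2 reached 18.9 and 42.4 CPM on 4 and 9 UMIs, where neuron markers summed to 5397 and 12072 CPM. Adar, a gene that overlaps the 3' end of Chrnb2 on the opposite strand, was at 23.7 and 160 CPM there, on 5 and 34 UMIs. The part of neuronal RNA or of Adar reads in the Chrnb2 value was not tested.

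The broad groups hid large differences among neuron-like clusters. Of 15 such clusters, 14 had 20 or more cells in each library and are named by their leading genes. Chrm1 was concentrated in the cluster led by Pthlh, Bcl11b, Sst and Six3, at 71.2 and 71.5 CPM (52 and 57 UMIs), followed by the Fezf1, Adcyap1 and Nr5a1 cluster at 45.6 and 18.3 CPM. The median over clusters was 3.77 CPM, and 2 clusters had no Chrm1 UMI. Chrm3 was highest in the Synpr, Prokr2, Ntng1 and Nos1 cluster, at 85.9 and 122 CPM, against a median of 20.8 CPM. For both genes the highest cluster was the same in each library, and for Chrm3 its intervals in each library lay above those of the next cluster (50.6 and 41.4 CPM). Nos1 makes nitric oxide, and Sst encodes the peptide somatostatin.

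Chrm2 was spread more evenly, with the Ebf3, Nxph4 and Stk26 cluster at 40.6 and 40.8 CPM, the Nts and Crh cluster at 41.8 and 36.1 CPM and the Hcrt cluster lowest at 1.58 and 2.75 CPM. Which cluster was highest differed between libraries. Chrna3 was highest in the Pmch, Tacr3 and Cartpt cluster, at 49.1 and 45.3 CPM, and next in the Ebf3, Nxph4 and Stk26 cluster at 28.2 and 25 CPM (16 and 19 UMIs), a cluster without Pmch among its leading genes. The Pthlh cluster, highest in Chrm1, had no Chrna3 UMI. Chrna4 was highest in the Tac2, Lamp5 and Syt2 cluster, at 99.8 and 83.5 CPM. The Ebf1, Npy and Npw cluster had 1 and 0 UMIs of it, the Nts and Crh cluster 2 and 3, and the Hcrt cluster 12 and 17 (9.49 and 11.7 CPM). Chrnb2 was present in each of these low clusters, at 56.5 and 70.7, 81.1 and 132, and 75.1 and 77 CPM. Its cluster means ran from 63.5 to 106 CPM.

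**Figure D4:**
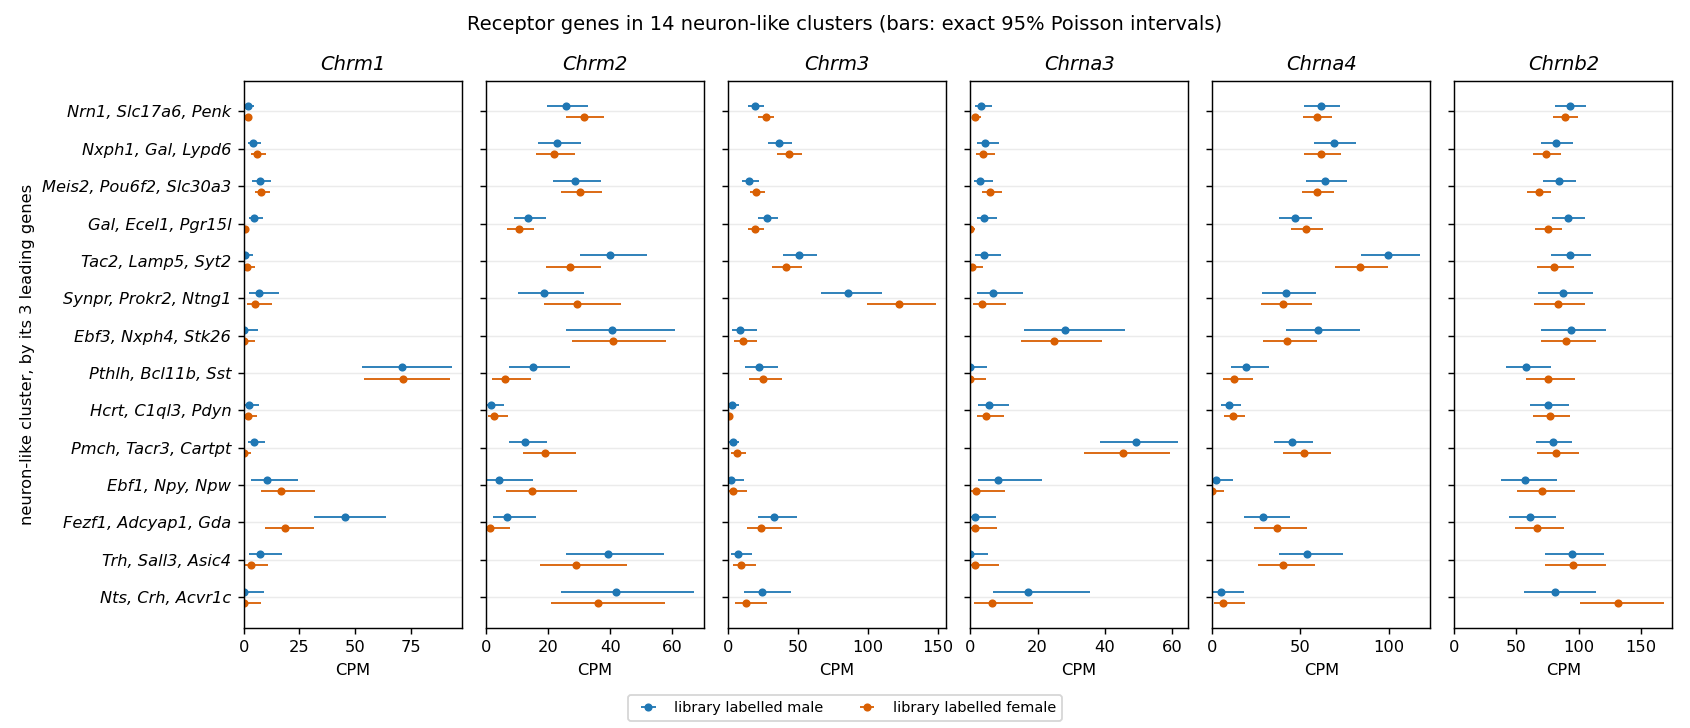
CPM (horizontal axes) of 6 receptor genes (panels) in 14 neuron-like clusters named by leading genes (rows), with exact 95% Poisson intervals; each point is 1 library. Chrm1 peaks in the Pthlh cluster, Chrm3 in the Synpr cluster, Chrna3 in the Pmch cluster and Chrna4 in the Tac2 cluster in both libraries, while Chrnb2 varies little.

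Over these 14 clusters, the levels of a gene in the 2 libraries correlated at Pearson r from 0.834 (Chrm2) to 0.972 (Chrna4) for Chrm1, Chrm2, Chrm3, Chrna3 and Chrna4, at 0.413 for Chrnb2 and at -0.0384 for Chrna7, which had no UMI in 10 of the clusters, as a description with clusters made from the same cells. Among 10488 genes, ranked by the lower r of the 2 libraries, the pattern of Chrm1 was most like Ptk2b (r = 0.884 and 0.965), Fam81a and Ddn. Chrm3 was most like Cacna1i (0.850 and 0.868), Fam84a and Smarcd3. Cacna1i encodes a T-type calcium channel and Ptk2b a calcium-activated tyrosine kinase. Chrna3 was most like 2510009E07Rik (0.885 and 0.867), Fam174b and 2610001J05Rik. The genes ranked first for Chrnb2 were AF529169 (0.694 and 0.687), Cntnap2 and Setd3. Since Chrnb2 itself correlated at only 0.413 between the libraries, no likeness was read from them. Sncb and Tcf25 were among the 3 genes most like Chrna4. For Chrna7, with 6 UMIs in neurons, no likeness was read.

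Chrm2 was most like 9330158H04Rik (0.778 and 0.874), Cbln2 and Trnp1. 9330158H04Rik is a long noncoding RNA on the opposite strand whose exons share 668 bases with exons of Chrm2 (chr6:36388084-36528414, +) at the first-exon end, 139.66 kb from the 3' end where these reads are made. It had 204 and 209 UMIs in neurons, and like Chrm2 it was low in Hcrt-high neurons, with 1 and 3 UMIs (0.877 and 2.21 CPM against 18.3 and 11.4 CPM in other excitatory neurons). Chrnb2 (chr3:89746195-89764632, -) shares 7252 bases at its 3' end with Adar on the opposite strand, an RNA-editing enzyme, and here the overlap lies where 3' reads fall. Since the use of strand in counting is not given in the sources used here, whether reads of such pairs were kept apart is not known. Adar was at 187 and 203 CPM in neurons and 165 and 154 CPM in Hcrt-high neurons. Chrm1 (chr19:8663789-8683587, +), Chrm3 (chr13:9875486-10360847, -), Chrna3 (chr9:55010111-55026562, -), Chrna4 (chr2:181018380-181043546, -) and Chrna7 (chr7:63098692-63212569, -) had no such counted overlap, apart from Gm26861 at the start of Chrm3 with 2 and 2 UMIs.

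Acetylcholine itself had little counted machinery here. Chat, which makes it, had 0 and 4 UMIs in neurons, and the vesicular transporter Slc18a3 8 and 8. The choline transporter Slc5a7 had 77 and 66 UMIs in neurons, of which 44 and 36 were in Pmch-high neurons (30.7 and 33.9 CPM against 1.24 and 2.25 CPM in other excitatory neurons; 4.45 ± 0.34, edgeR adjusted p = 3.34e-08). Hcrt-high neurons had 1 and 0. Newly formed oligodendrocyte-like cells had Slc5a7 at 46.2 and 47.3 CPM on 16 and 29 UMIs. Ache, the enzyme that breaks acetylcholine down, was higher in Pmch-high than in other excitatory neurons, at 328 and 267 against 171 and 170 CPM (1.07 ± 0.09, edgeR adjusted p = 1.04e-07). In Hcrt-high neurons it was at 176 and 200 CPM (0.39 ± 0.11, edgeR adjusted p = 0.00135), a difference that is 0.25 smaller by plain CPM and that DESeq2 did not call. Of the 7 genes of synthesis, transport and breakdown, 3, 1, 2 and 2 were abundant enough to test in the 4 comparisons. None was called between inhibitory and other excitatory neurons, and Slc5a7 and Ache were both lower in Hcrt-high than in Pmch-high neurons, Ache without a call by DESeq2 (adjusted p = 0.065) or in thinned cells (edgeR adjusted p = 0.283). Bche and Prima1, another cholinesterase and the membrane anchor of Ache, were mainly glial. Bche had 63 and 76 UMIs in mature oligodendrocyte-like and 25 and 18 in endothelial-like cells, and Prima1 126 and 112 in mature oligodendrocyte-like cells, against 8 and 13 in neurons.

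Proteins of the Ly6 family and chaperones bind nicotinic receptors and change their assembly or sensitivity, and transcripts of some of them differed between the same neuron groups. The counts of this list and of those that follow stand beside 11.0% of all genes called for inhibitory, 41.1% for Hcrt-high and 34.8% for Pmch-high against other excitatory neurons and 34.0% between the peptide groups, and no list was tested against other genes. Of 12 such genes 10 were tested, and 3 were higher and 2 lower in inhibitory than in other excitatory neurons (median log2 fold change 0.04, all genes -0.00022). Lypd6 was at 59.8 and 55.4 against 19.4 and 15.4 CPM (1.74 ± 0.10, edgeR adjusted p = 2.47e-08) and Lypd6b at 40.1 and 32.8 against 10.9 and 12.6 CPM (1.61 ± 0.14, edgeR adjusted p = 1.43e-06). Lypd1 was higher as well (0.27 ± 0.07), a call lost with DESeq2 (adjusted p = 1.0, 2 higher and 1 lower in the list) and without the library block (edgeR adjusted p = 0.309, 2 higher and 0 lower). In Hcrt-high neurons 3 were higher and 3 lower (median 0.05, all genes -0.01). Lypd6, which enhances nicotinic receptor responses, was at 239 and 239 CPM there (4.04 ± 0.13), while Lynx1, a brake on nicotinic receptors, was at 36.8 and 49.4 against 306 and 283 CPM (-2.50 ± 0.14, edgeR adjusted p = 5.61e-65). Lypd6b was higher as well (1.07 ± 0.27), and Tmem35, the older symbol of the Chrna7 chaperone gene Tmem35a, was lower (-0.71 ± 0.16). DESeq2 called 1 higher and 1 lower and neither Lypd6b (adjusted p = 0.232) nor Tmem35 (adjusted p = 0.139).

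Among the 10 genes, 5 were higher and 1 was lower in Pmch-high neurons (median 0.32, all genes -0.02). Lypd1, also called Lynx2, was at 631 and 569 against 94.5 and 83.6 CPM (3.02 ± 0.08, edgeR adjusted p = 4.53e-14), Ly6h at 1822 and 1790.5 against 934 and 915 CPM (1.24 ± 0.05) and Lypd6 at 34.9 and 30.1 CPM (1.17 ± 0.20). DESeq2, and edgeR in thinned cells, called 2 higher and 1 lower, and the call of Lypd6 was lost in both (DESeq2 adjusted p = 0.0805; -0.84 in thinned cells, edgeR adjusted p = 0.581). Tmem35 had 5 and 10 UMIs, or 3.49 and 9.42 against 73.7 and 70.5 CPM (-3.30 ± 0.27, edgeR adjusted p = 6.74e-08). Between the peptide groups, Lypd6 (2.85 ± 0.16) and Tmem35 (2.50 ± 0.35) were higher and Lypd1 (-3.71 ± 0.14) and Lynx1 (-2.38 ± 0.15) lower in Hcrt-high neurons, 2 and 4 genes of the 10 being called in each direction. For each gene named here the libraries of the groups did not overlap.

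Among genes of the Gq pathway and the M-current, through which M1 and M3 receptors act, 14 of 17 were tested. Between inhibitory and other excitatory neurons 2 were higher and 4 lower (median -0.12): the phospholipase C gene Plcb1 at 88.3 and 101.9 against 42.8 and 52.0 CPM (1.0 ± 0.07, edgeR adjusted p = 1.28e-07), Rgs2, which shortens Gq signals, higher (0.68 ± 0.06), and the M-current channel genes Kcnq3 (-0.66 ± 0.07) and Kcnq5 (-0.48 ± 0.12) lower. DESeq2, and edgeR without the library block, called 2 higher and 1 lower, and Kcnq5 was not called by either (DESeq2 adjusted p = 1.0, edgeR adjusted p = 0.126). In Hcrt-high neurons 2 were higher and 7 lower (median -0.57), beside 21.3% and 19.8% of all genes, and DESeq2 called 1 higher and 5 lower. Plcb1 was at 5.26 and 4.43 CPM on 6 and 6 UMIs (-3.05 ± 0.30, edgeR adjusted p = 1.31e-22) and Kcnq3 at 12.3 and 19.9 CPM (-1.96 ± 0.20), whereas Rgs2 was at 280 and 266 against 66.9 and 73.6 CPM (2.2 ± 0.11). In Pmch-high neurons 1 was higher and 5 lower (median -0.42), led by Rgs4 (-2.13 ± 0.15), Prkcb (-1.51 ± 0.13), the IP3 receptor gene Itpr1 (-1.36 ± 0.22) and Plcb4 (-1.23 ± 0.13). DESeq2 called 0 higher and 4 lower, and in thinned cells 2 were lower, without Itpr1 (edgeR adjusted p = 0.43) and Plcb4 (edgeR adjusted p = 0.123). Between the peptide groups 13 were tested and 4 were higher and 3 lower in Hcrt-high neurons (median 0.15), with Plcb1 (-2.90 ± 0.37) and Kcnq3 (-2.08 ± 0.23) lower and Rgs2 (2.18 ± 0.14) and Itpr1 (1.96 ± 0.25) higher.

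Of 16 genes of the Gi pathway and its potassium channels, the targets of the M2 receptor, 15 were tested for inhibitory against other excitatory neurons. None was higher and 4 were lower (median -0.07): Rgs6 at 8.88 and 10.5 against 17.1 and 24.7 CPM (-1.11 ± 0.15, edgeR adjusted p = 1.38e-04), Rgs7 (-0.23), Gnai2 (-0.15) and Gng2 (-0.12), these last with edgeR adjusted p between 0.0399 and 0.0493. With other size factors, or without the library block, 1 of the 15 was called, and DESeq2 called none. In Hcrt-high neurons 9 of 15 were higher and 2 lower (median 0.57), although Chrm2 itself was low there. Rgs6, which speeds the end of Gi signals, was at 78.1 and 92.2 CPM (2.27 ± 0.16, edgeR adjusted p = 2.82e-44), Gnai2 at 339 and 363 against 206 and 197 CPM (1.06 ± 0.11) and Gnaz at 272 and 285 against 177 and 159 CPM (0.99 ± 0.11), whereas the adenylyl cyclase gene Adcy1 was lower (-1.46 ± 0.25), a call lost in thinned cells (edgeR adjusted p = 0.0712). DESeq2 called 5 higher and 1 lower.

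In the Pmch-high group 7 of these 14 genes had higher and 5 lower levels (median 0.29). Rgs6 had 2 and 0 UMIs and the potassium channel gene Kcnj5 1 and 0, against 83 and 143 and 45 and 44 UMIs in other excitatory neurons. Kcnj3, a partner channel subunit, was at 11.2 and 15.1 against 52.1 and 55.3 CPM (-1.78 ± 0.22, edgeR adjusted p = 6.89e-06) and Adcy1 at 4.18 and 9.42 against 38.1 and 38.0 CPM (-2.28 ± 0.30). DESeq2 called 3 higher and 3 lower, without Kcnj5 (adjusted p = 0.0994), and in thinned cells Kcnj3 and Adcy1 were not called (edgeR adjusted p = 0.294 and 0.0708). Against Pmch-high neurons, Hcrt-high neurons had 89 and 125 UMIs of Rgs6 and 16 and 16 of Kcnj5, and 7 of the 14 tested were higher and 3 lower (median 0.64), Kcnj3 by 1.17 ± 0.31 and Rgs7 by 0.86 ± 0.18. DESeq2 called 2 higher and 2 lower, without Kcnj5 (adjusted p = 0.0599), Kcnj3 (0.525) and Rgs7 (0.32). In the 2 comparisons that share other excitatory neurons as reference, Rgs6 thus stood on opposite sides.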

How the data were processed

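The authors deposited raw UMI counts per gene and barcode for each library, with Cell Ranger 2.2.0 and the builds GRCm38 and mm10 named in the submitters' processing notes. The sources used here do not give the annotation release, cell calling or use of strand. The lowest barcodes held 1987 and 2155 UMIs, so no estimate of free RNA was made from barcodes below them.

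Cells with at least 500 genes and at most 20% mitochondrial UMIs were kept (163 barcodes removed in each library), and the 95 and 115 cells with the highest Scrublet scores were removed as doublets (0.8% per 1000 barcodes; Scrublet's own threshold called 56 and 11). Clustering used scanpy 1.11.5 (2000 variable genes, 30 principal components, 15 neighbours, Leiden resolution 1) without the acetylcholine genes. Clusters were named from marker lists.

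UMIs were summed per library and group and tested with edgeR 4.0.16 (filterByExpr, TMM, quasi-likelihood, library as a block, 1 residual degree of freedom, Benjamini-Hochberg over all genes tested, 2-sided, called at adjusted p under 0.05). Cells were not used as replicates. With the block, p-values rest on how far a group difference varied between the 2 pools, together with a spread shared over genes. Both groups of a comparison come from the same libraries, hence the block. Prior degrees of freedom were infinite for the 2 comparisons with Hcrt-high neurons, so the shared spread alone entered there. Intervals are exact 95% Poisson (CPM) and cover counting error only; limits for 0 use 3 counts. Alternatives were DESeq2 1.42.0, other size factors, no filter, no block, thinning to 3000 UMIs, stricter cell filters, gates and limits. The edgeR step was also run on simulated data, with the same spread for every gene and changes added only to well-counted genes. Its outcome is not given here, and it lends no weight to calls on few UMIs.

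The fold changes of single libraries were first computed from CPM; their scaling with the library sizes of the fit was chosen after seeing the data, and it changed which genes had opposite signs in the libraries (Chrna4 in Pmch-high neurons no longer did). The counts and adjusted p-values of pathway genes by setting were also added after seeing the data.

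The receptor genes are reported in every comparison, except that Chrna7 was too low to test in any, and from each pathway list at most 4 called genes with the largest change. The genes and lists were chosen with earlier results of these data known. RefSeq promoter windows were matched by symbol; no window of Chrm1 is printed. Some genes that these rules name are not reported here.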

Additional observations from a re-analysis of the deposited data

Results flagged for a closer look

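In 4 cases the 2 libraries, each taken alone, put a receptor gene on opposite sides of 0. These log2 fold changes use the library sizes of the fit and 0.5 added counts, and the difference between the libraries was not tested, since each library is 1 pool. For inhibitory against other excitatory neurons, Chrm1 differed by -0.24 in the library labelled male and 0.84 in the library labelled female, Chrm2 by 0.070 and -0.43, and Chrm3 by 0.042 and -0.34. For Hcrt-high against Pmch-high neurons, Chrm3 differed by 0.31 and -2.24, on 3 against 3 UMIs and 1 against 5 UMIs. None of these genes was called in these comparisons.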

How the results depend on the processing

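Of the fits of single receptor genes under other settings, 172 kept direction and call, 5 gained a call, 7 lost it and 6 changed sign. The signs that changed belonged to genes that were not called: for inhibitory neurons Chrm1 with the stricter cell filter (-0.27) and, with peptide-high neurons kept, Chrm2 (0.063) and Chrm3 (0.19); for Hcrt-high neurons Chrnb2 in thinned cells (-0.068) and at a limit of 1% (-0.060); and for Pmch-high neurons Chrnb2 in thinned cells (-0.0028). Without the library labelled female, Chrm1 (-0.24), Chrm2 (0.070) and Chrm3 (0.042) changed sign for inhibitory neurons, where the other library alone gave 0.84, -0.43 and -0.34. Leaving out a library leaves 1 sum per arm and so a value with no test. The cause of these changes was not tested.

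The number of receptor genes called differed from that reported in 12 of 36 combinations of comparison and setting. For inhibitory neurons it went from 0 to 1 without doublet removal, 1 with a gate of 2 UMIs and 3 with peptide-high neurons kept. Chrna4, higher in inhibitory neurons, was called in each of these settings. In cells thinned to 3000 UMIs, which leaves fewer genes to test, it was 2 instead of 4 for Hcrt-high, 2 instead of 4 for Pmch-high and 0 instead of 3 (1 tested) between the peptide groups. DESeq2 called 3 for Hcrt-high, 2 for Pmch-high and 2 between the peptide groups, where a limit of 1% and the stricter filter each gave 2 of 3 tested. Without the library block 3 were called for Pmch-high neurons. Genes called among all genes went, for inhibitory neurons, from 1425 to 274 with DESeq2, 761 without a filter, 854 in thinned cells and 3087 with peptide-high neurons kept. DESeq2 and thinning gave 1575 and 1328 instead of 4861 for Hcrt-high, 1381 and 1021 instead of 4106 for Pmch-high and 781 and 758 instead of 3297 between the peptide groups. Groups were paired by library, and without that replicate block 363 genes were called for inhibitory neurons; among receptor genes it ended the call of Chrm1 in Pmch-high neurons (-1.68) and no other. Chrna4 in precursor-like cells had a mean of 101.1 CPM with the stricter filter and 110 CPM without doublet removal, against 99.9 CPM; Chrnb2 there had 16.3 and 24.8 CPM against 11.7 CPM. With 2 pools and 1 residual degree of freedom, and under 10 UMIs for Chrm1, Chrm2 and Chrm3 in Hcrt-high neurons, small differences were not detectable.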
